A study of Mus musculus with 4 samples.

Results

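The wide refined peaks were the intervals of the narrow (refined) H3K36me3 peak lists of the mouse strains B6 and KI that lay on autosomes and spanned 1000 bp or more, counting both end positions. They were chosen by their width alone, and 2366 B6 peaks and 3047 KI peaks met the rule, of 54236 and 68189 autosomal refined peaks and of 131194 refined peaks in the whole series. The members thus made up 4.36% of the autosomal list in B6 and 4.47% in KI. B6 is C57BL/6J, and KI is the knock-in strain B6.Cg-Prdm9<tm1.1Kpgn>/Kpgn, in which the last exon of Prdm9, encoding the zinc-finger array, was exchanged for that of the Cst allele of CAST/EiJ mice. Germ cells at 14 days post-partum (dpp) were used for ChIP in 2 biological replicates of each strain, and the single input of each strain is labelled 15 dpp. The antibody is labelled H3K36me6 but described in the study's methods as an H3K36me3 antibody. The replicates were merged by the authors before peak calling, so there was 1 list per strain and no error between replicates could be given.

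H3K36me3 is placed over the bodies of transcribed genes by SETD2, which travels with elongating RNA polymerase II, and in that setting it forms long domains with more of the mark toward the 3′ end. In meiotic prophase PRDM9 adds H3K36me3 together with H3K4me3 to nucleosomes at recombination hotspots, at sites that its zinc fingers select, and the Dom2 allele of B6 and the Cst allele of KI select different sequences. The peak caller ZINBA returned broad (unrefined) regions of enrichment and, within each, refined peaks of additional enrichment. The wide peaks, at 1000 bp or more, are long enough to span several nucleosomes, as are some of the shorter refined peaks.

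Broad regions covered between 85.2% and 100% of the length of each of 10 germ-cell genes in B6, among them Sycp1, Sycp3, Dmc1 and Ddx4, and between 77.4% and 100% in KI. Of 7 Leydig and interstitial marker genes, 5 lay outside all broad regions in B6 and 4 in KI, and Star was covered at 100% in both. The 7 Sertoli cell markers were covered at a median of 29.7% in B6 (range 0% to 71.7%, Inha at 0%) and of 0% in KI (range 0% to 8.49%, with Sox9, Cldn11, Inha and Clu at 0%). The part of this difference in coverage between the strains in the results below was not tested.

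The wide peaks included a large group without any counterpart in the other strain, 42.1% in B6 and 39.8% in KI. Among peaks under 1000 bp these shares were 43.4% and 31.7%. Short sequence words listed from KI separated the KI group from the B6 group at the peak centres. Those listed from B6 separated them only when whole peaks were searched. Stretches from 4 of these peaks are shown first, since they carry the sequence words, 10 bases long, that the comparison below counts. The capitals mark the 10-mer, the coordinates are those of mm9 (NCBIM37) and the plus strand is given. They are among the widest such peaks with a listed 10-mer within 100 bp of the midpoint, leaving out one whose window overlapped an annotated untranslated region.
B6 wide peak of 2268 bp (Elmo1), chr13:20461685-20461744: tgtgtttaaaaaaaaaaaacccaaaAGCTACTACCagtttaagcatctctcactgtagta
B6 wide peak of 1794 bp (no gene), chr1:41850266-41850325: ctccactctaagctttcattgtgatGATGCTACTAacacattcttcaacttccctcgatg
KI wide peak of 2093 bp (no gene), chr10:76460720-76460779: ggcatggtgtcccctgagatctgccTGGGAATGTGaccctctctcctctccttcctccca
KI wide peak of 1836 bp (no gene), chr13:30346519-30346578: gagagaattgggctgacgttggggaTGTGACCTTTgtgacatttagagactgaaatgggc

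The centres of 5 peaks named below were chosen to show what lies under a wide peak: the inside of a long intron (Magi3), the sequence downstream of a short gene (Ankrd49), a coding exon with its splice donor (Fars2), an intron (Ash2l) and the single large coding exon of a zinc finger gene (Zfp3). Each is 300 bases of the plus strand of mm9. The capitals mark coding exon sequence in Fars2 and Zfp3 and CpG dinucleotides in the other windows.
Magi3, centre of the B6 peak, chr3:103981448-103981747: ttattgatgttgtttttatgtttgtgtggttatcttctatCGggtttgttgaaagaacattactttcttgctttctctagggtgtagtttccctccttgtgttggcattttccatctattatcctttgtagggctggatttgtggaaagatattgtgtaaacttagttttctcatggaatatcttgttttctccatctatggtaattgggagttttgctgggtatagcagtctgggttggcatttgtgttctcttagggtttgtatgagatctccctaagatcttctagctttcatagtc
Ankrd49, centre of the B6 peak, chr9:14584042-14584341: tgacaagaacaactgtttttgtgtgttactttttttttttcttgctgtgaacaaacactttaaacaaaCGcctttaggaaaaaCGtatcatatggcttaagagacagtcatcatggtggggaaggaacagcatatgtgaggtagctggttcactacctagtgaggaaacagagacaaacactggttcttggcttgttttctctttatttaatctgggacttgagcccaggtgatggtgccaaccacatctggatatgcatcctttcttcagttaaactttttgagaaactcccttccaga
Fars2, centre of the B6 peak, chr13:36296884-36297183: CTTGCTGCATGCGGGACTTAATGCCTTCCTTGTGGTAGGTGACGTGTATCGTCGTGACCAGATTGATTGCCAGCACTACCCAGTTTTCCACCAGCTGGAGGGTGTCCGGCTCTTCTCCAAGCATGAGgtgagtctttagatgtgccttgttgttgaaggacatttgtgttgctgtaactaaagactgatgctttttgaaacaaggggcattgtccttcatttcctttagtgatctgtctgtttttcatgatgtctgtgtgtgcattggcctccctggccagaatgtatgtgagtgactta
Ash2l, centre of the KI peak, chr8:26948448-26948747: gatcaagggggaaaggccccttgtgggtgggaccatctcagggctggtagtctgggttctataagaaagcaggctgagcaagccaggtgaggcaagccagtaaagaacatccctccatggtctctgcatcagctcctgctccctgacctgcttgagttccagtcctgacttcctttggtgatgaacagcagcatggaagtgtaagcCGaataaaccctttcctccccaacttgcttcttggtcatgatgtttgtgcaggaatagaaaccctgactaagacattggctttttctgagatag
Zfp3, centre of the KI peak, chr11:70584791-70585090: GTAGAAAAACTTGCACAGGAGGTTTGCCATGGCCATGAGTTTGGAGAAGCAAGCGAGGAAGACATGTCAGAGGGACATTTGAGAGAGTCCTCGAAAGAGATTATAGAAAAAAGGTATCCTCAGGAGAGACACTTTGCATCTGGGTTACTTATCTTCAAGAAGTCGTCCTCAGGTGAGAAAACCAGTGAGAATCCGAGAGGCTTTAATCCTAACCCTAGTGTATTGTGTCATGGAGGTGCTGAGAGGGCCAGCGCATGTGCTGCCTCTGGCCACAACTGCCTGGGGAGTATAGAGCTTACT

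The lengths formed a continuous tail and no separate group in either strain (the plot of peak widths). The median width of the wide peaks was 1269.5 bp in B6 (quartiles 1110 and 1554 bp, highest 5171 bp) and 1250 bp in KI (upper quartile 1507 bp, highest 4141 bp), against 305 bp and 310 bp for the refined peaks under 1000 bp. Although few, they held 15.0% of the autosomal bases that refined peaks covered in B6, and 14.7% in KI. The tail was longer in B6 than in KI: 209 B6 and 215 KI peaks reached 2000 bp, 103 and 53 reached 2500 bp, and 40 and 22 reached 3000 bp. In every autosome between 3.75% and 5.19% of refined peaks were wide in B6, and between 4.03% and 4.96% in KI.

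**Figure D1:**
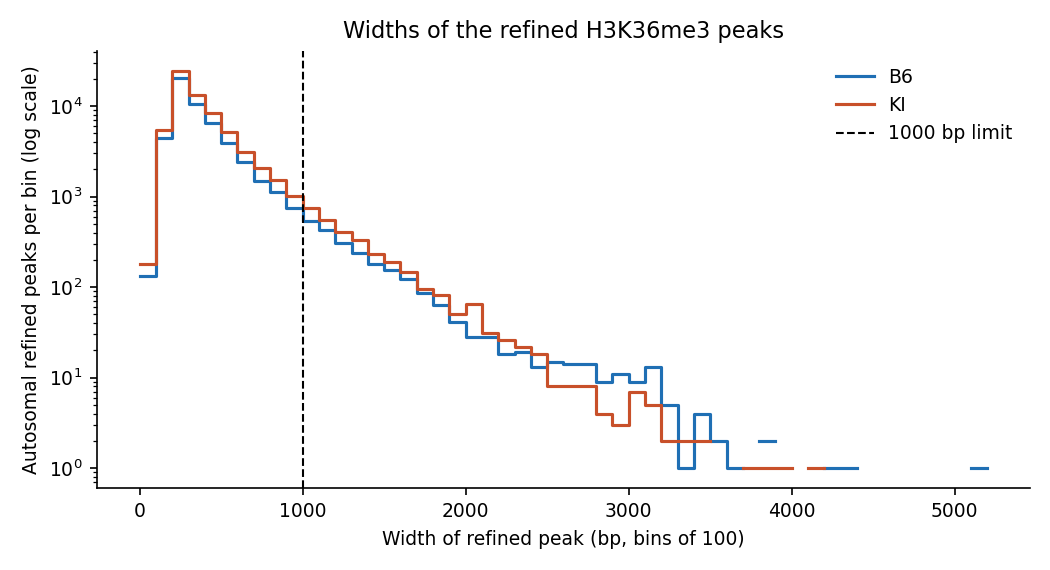
Number of autosomal refined peaks (y axis, log scale) in bins of 100 bp of peak width (x axis, bp) for B6 (blue) and KI (orange); the dashed line is the 1000 bp limit. Counts fall without a gap through the limit in both strains, and beyond 2500 bp B6 has 103 peaks and KI 53.

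The peaks next to the limit, 2 on each side in each strain, lay in introns or between genes. The first 2 B6 members, each just inside, lay in introns of Ncoa2, a coactivator of nuclear receptors (chr1:13314907-13315906), and of Mtap7, a microtubule-associated protein. Just outside were peaks in introns of Rffl and Adk, each 1 bp narrower than the limit. In KI the first 2 members were a second intronic site in Ncoa2 (chr1:13311465-13312464), over a B6 broad region, and an intergenic peak 3.48 kb from the nearest protein-coding gene, and the 2 just outside were intergenic, 4.24 kb and 145 kb from a gene. None of these 3 intergenic peaks lay over a B6 region.

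The wide peaks did not sit in longer broad regions than other peaks. The median broad region around them was 3000 bp in both strains, as it was for peaks under 1000 bp, and they therefore filled more of it, a median of 41.2% in B6 and 44.2% in KI against 9.13% and 9.60%. In B6 252 of the 2366 wide peaks (10.7%, Wilson 95% interval 9.47% to 11.96%) began or ended at the edge of the broad region, within 1 bp at the start or at the same base at the end, and 331 of the 3047 (10.9%, 9.81% to 12.02%) did so in KI. Among peaks under 1000 bp these shares were 0.239% and 0.252%, and among peaks of 2000 bp or more 23.9% and 35.3%. The length of the broad region was a multiple of 500 bp, the step of the sliding window, in 58500 of 58502 rows in B6 and 72689 of 72692 in KI, so the ends of these wide peaks coincided with that grid. A second refined peak in the same broad region was less frequent, at 7.23% (6.25% to 8.34%) of wide peaks against 13.5% in B6 and 7.19% (6.32% to 8.16%) against 16.4% in KI. Wide peaks filled more of their regions and so left less room for a second peak. The part of this in the difference was not tested. Intervals here and below are Wilson 95% intervals, which cover the number of peaks only and neither biological nor sequencing error.

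Whether a wide peak in one strain was also marked in the other was asked next. Of the B6 wide peaks, 66 (2.79%) overlapped a wide KI peak by at least 1 bp, 677 (28.6%) overlapped only shorter KI refined peaks, 627 (26.5%) lay over a KI broad region without a refined peak, and 996 (42.1%, 40.1% to 44.1%) overlapped no KI region at all. Of the KI wide peaks, 66 (2.17%) overlapped a wide B6 peak, 633 (20.8%) a shorter B6 refined peak, 1134 (37.2%) a broad region only, and 1214 (39.8%, 38.1% to 41.6%) no B6 region. The corresponding share without any region was 43.4% for B6 peaks under 1000 bp, and 31.7% (31.4% to 32.1%) for KI peaks under 1000 bp. Wide KI peaks thus lacked a B6 region more often than other KI peaks, whereas the B6 interval for wide peaks held the value of the shorter ones. The merged KI data were sequenced more deeply than the B6 data according to the study's methods, and the part of this in the difference was not tested.

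A simple overlap grows with the width of the peak, since a longer interval meets more peaks. By that measure 31.4% (29.6% to 33.3%) of wide B6 peaks overlapped a KI refined peak against 17.1% of shorter ones, and 22.9% (21.5% to 24.5%) of wide KI peaks against 13.7%, and the share was higher for wide peaks on all 19 autosomes in both strains. Asked of the midpoint alone, a single base at any width, the share was 9.72% (8.59% to 10.98%) against 10.3% in B6. In KI it was 7.48% (6.60% to 8.47%) against 8.18%. By that measure wide peaks were not above the shorter ones. The midpoint can miss a short peak that lies elsewhere within a wide one, so neither measure decides whether sharing differs with width. Where 50% of the shorter peak had to be covered, which also rises with width, it was 26.7% against 11.9% in B6 and 18.7% against 9.61% in KI. The refined peak met in the other strain was usually short: the widest one per B6 wide peak had a median of 361 bp, and the B6 peak met by KI wide peaks a median of 369 bp.

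**Figure D2:**
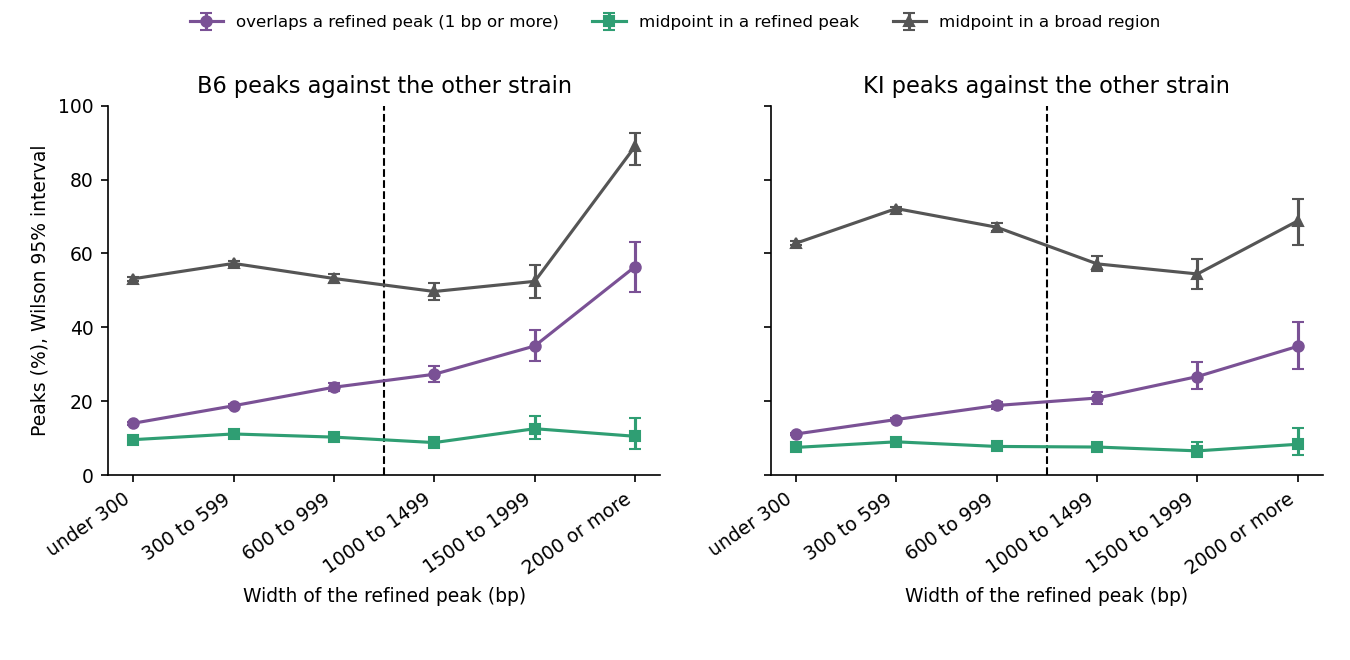
Share of autosomal refined peaks (y axis, percent, with Wilson 95% intervals) by width class (x axis, bp) that overlap a refined peak of the other strain (purple circles), have their midpoint in one (green squares) or have their midpoint in a broad region of the other strain (grey triangles), for B6 (left) and KI (right); the dashed line is the 1000 bp limit. The purple line rises with width while the green line stays between 6.58% and 12.6%, and the B6 class of 2000 bp or more stands out with 89.0% of midpoints in a KI broad region.

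The midpoints of 53.7% (51.7% to 55.7%) of wide B6 peaks lay in a KI broad region, against 54.8% of shorter B6 peaks. This near-equal value joined opposite differences, since it was 50.3% (48.2% to 52.4%) for the 2157 peaks from 1000 bp to under 2000 bp and 89.0% (84.0% to 92.6%) for the 209 wider ones. For KI it was 57.5% (55.7% to 59.2%) of wide peaks against 67.2% (66.8% to 67.5%) of shorter ones, and wide peaks were lower on 18 of 19 autosomes. There the peaks from 1000 bp to under 2000 bp stood at 56.6% (54.8% to 58.5%), below the shorter ones as in B6, and the 215 wider ones at 68.8% (62.4% to 74.7%). The KI difference was seen both inside protein-coding genes, where 73.9% (72.0% to 75.8%) of wide against 79.8% of shorter KI midpoints lay in a B6 region, and outside, where it was 23.8% (21.3% to 26.6%) against 32.0%. It was found among peaks in broad regions of up to 3000 bp, 40.4% (38.2% to 42.7%) against 52.6%, and was small in longer regions, 82.8% (80.6% to 84.8%) against 83.9%, where the interval for wide peaks held the value for the shorter ones. In B6 regions longer than 3000 bp the share was 81.7% (79.4% to 83.9%) of wide against 80.3% of shorter peaks. In B6 regions of up to 3000 bp it was 27.9% (25.5% to 30.5%) against 30.8%. Only 25 of the 209 B6 peaks of 2000 bp or more lay in regions of up to 3000 bp, against 51.4% of peaks under 1000 bp. The part of region length in their 89.0% was not tested. In B6 the peaks outside genes in broad regions of up to 3000 bp had the lowest value. It was 19.3% (16.0% to 23.1%) of 477 wide peaks against 24.4% of shorter ones. The same stratum in KI gave 15.0% (12.6% to 17.7%) of 741 wide peaks against 24.7%.

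Wide peaks lay somewhat less often in genes than other refined peaks. Their midpoints fell in a protein-coding gene in 71.6% (69.7% to 73.3%) of cases in B6 against 76.5% for peaks under 1000 bp, and in 67.2% (65.5% to 68.9%) against 73.5% in KI. The wide peaks were lower on 18 of 19 autosomes in B6 and 17 of 19 in KI. Inside genes the wide peaks without any region in the other strain were 33.8% in B6 and 23.1% in KI, and outside genes they were 63.0% and 74.2%. Peaks under 1000 bp were split in the same direction. Their midpoints lay in a broad region of the other strain in 60.7% of cases inside and 35.7% outside genes in B6. In KI these shares were 79.8% and 32.0%. The midpoints of wide peaks lay in an exon of a protein-coding gene in 9.34% (8.23% to 10.6%) of cases in B6 and 7.61% (6.72% to 8.61%) in KI, against 8.63% and 7.84% for shorter peaks. An exon was touched anywhere along the peak by 27.8% of wide peaks in B6 and 22.5% in KI, a share that grows with width. In the peaks of 2000 bp or more the midpoint itself lay in an exon more often, in 18.7% (14.0% to 24.5%) in B6 and 14.0% (9.95% to 19.2%) in KI. Most wide peaks thus had their centre outside the exons of protein-coding genes.

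Along the gene, wide peaks were spread from end to end. With 0 as the 5′ end and 1 as the 3′ end of the gene, the median position of midpoints was 0.52 (quartiles 0.26 and 0.76) for 1653 wide B6 peaks in exactly 1 protein-coding gene and 0.54 for shorter ones. It was 0.47 (quartiles 0.23 and 0.74) for 1989 wide KI peaks and 0.51 for shorter ones. The last 10% of the gene's length held 9.80% of wide and 11.8% of shorter B6 peaks, and 10.8% and 11.1% in KI, while the first 10% held 8.59% and 7.99% in B6 and 10.8% and 8.41% in KI. The midpoint lay within 1 kb of a 5′ end for 22 wide B6 peaks (0.930%) and 29 wide KI peaks (0.952%), against 0.393% and 0.510% of shorter peaks.

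By distance in bp, the widest peaks differed in position, at 3′ ends in B6 and just inside 5′ ends of genes in both strains. For this they were split at 2000 bp, a limit set after the values were seen. By relative position the peaks of 2000 bp or more showed no such gathering. The first and last 10% each held 10.1% of 148 B6 peaks in exactly 1 gene. In KI they held 9.52% and 10.2% of 147. Median gene length was 37.1 kb in B6 and 72.5 kb in KI, against 117.5 kb and 112.9 kb under 1000 bp. A window of fixed length thus takes in a larger share of the gene. The part of this in the values below was not tested. Of the 209 B6 peaks of 2000 bp or more, 49 (23.4%, 18.2% to 29.6%) covered the 3′ end of a protein-coding gene, while 62 of the 2157 B6 peaks from 1000 bp to under 2000 bp (2.87%) did so. In KI it was 17 of 215 (7.91%, 4.995% to 12.3%) and 78 of 2832 (2.75%). A longer interval covers more of any set of points, so the midpoint was read too. It lay within 1 kb of a 3′ end in 16.7% (12.3% to 22.4%) of the B6 peaks of 2000 bp or more, 3.85% (3.11% to 4.75%) of the wide peaks under 2000 bp and 4.42% of those under 1000 bp. The KI values were 5.58% (3.22% to 9.501%), 4.17% (3.49% to 4.97%) and 3.84%.

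At the 5′ end the midpoints of the widest peaks gathered beyond the first 1 kb. Refined peaks seldom crossed a 5′ end: 0.0598% in B6 and 0.0998% in KI under 1000 bp, and 5.26% and 1.86% at 2000 bp or more. A peak of 2000 bp that starts at a 5′ end has its midpoint about 1 kb inside. Its distance from the end is thus partly set by the width limit. A narrower peak with the same start has its midpoint closer, so the bins below compare peaks with unlike starts. Of the B6 peaks of 2000 bp or more, 30 of 209 (14.4%, 10.2% to 19.8%) had their midpoint from 1 to 2 kb downstream of the nearest 5′ end of a protein-coding gene, against 1.67% (1.21% to 2.30%) of the wide peaks under 2000 bp and 0.623% of those under 1000 bp. A further 20 (9.57%, 6.28% to 14.3%) lay from 2 to 3 kb downstream, against 1.65% of peaks under 1000 bp. In KI 19 of 215 (8.84%, 5.73% to 13.4%) lay from 1 to 2 kb downstream, against 1.55% (1.16% to 2.08%) and 0.789%, and 5 (2.33%, 0.997% to 5.33%) from 2 to 3 kb, where the interval held the 1.78% of peaks under 1000 bp. Of the 50 B6 peaks between 1 and 3 kb, 9 also had their midpoint within 1 kb of a 3′ end, and 4 of the 24 in KI. Upstream of the 5′ end B6 had a smaller group from 2 to 3 kb away, 11 of 209 (5.26%, 2.96% to 9.18%) against 1.05% of peaks under 1000 bp.

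Among the 49 B6 peaks over a gene end, 32 had their midpoint downstream of the nearest 3′ end and 17 at or upstream of it, and they were found on 16 autosomes. The chromatin around them was marked in both strains, since 48 of the 49 midpoints lay in a KI broad region, and 34 of the 49 overlapped a KI refined peak. By midpoint 8 of the 49 lay in one, and over all 209 peaks it was 118 (56.5%) by overlap and 22 (10.5%, 7.05% to 15.4%) by midpoint, the latter near the 10.3% of peaks under 1000 bp. The whole B6 class of 2000 bp or more likewise lay in longer broad regions (median 8000 bp against 3000 bp for all wide peaks) and in shorter genes (median 37.1 kb against 109.9 kb), and in KI the class of 2000 bp or more had a median broad region of 4500 bp. A broad region is at least as long as the refined peak within it, so the difference in region length is partly set by the width limit.

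**Figure D3:**
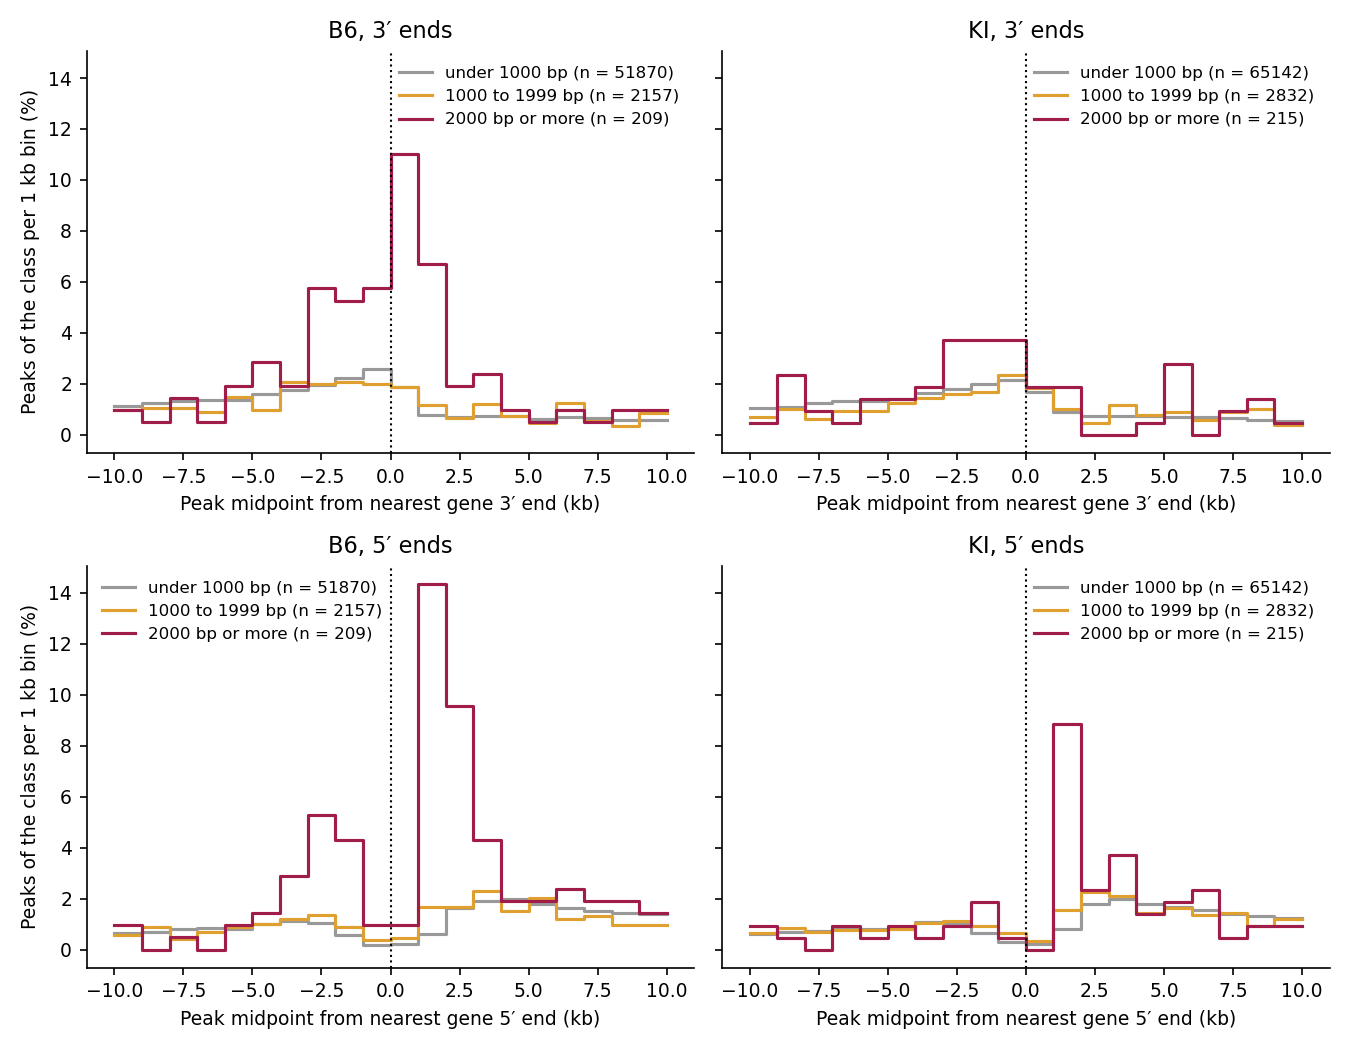
Share of peaks of a width class (y axis, percent per 1 kb bin) by the distance of the peak midpoint from the nearest 3′ end (top) or 5′ end (bottom) of a protein-coding gene (x axis, kb, positive downstream), for B6 (left) and KI (right). The B6 peaks of 2000 bp or more reach 23 of 209 peaks in the first 1 kb downstream of the 3′ end, and in both strains this class is highest from 1 to 2 kb downstream of the 5′ end, with 30 of 209 peaks in B6 and 19 of 215 in KI.

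The widest peaks lay over exons, introns and gene ends alike. The widest in B6 spanned 5171 bp at chr4:43434043-43439213 and took in 9 exons near the 3′ end of Rusc2, inside a broad region of 5500 bp. KI had a refined peak of 1439 bp inside the same interval. The second, of 4353 bp (chr3:103979421-103983773), lay in an intron of Magi3, a membrane scaffold protein, where KI had a refined peak of 261 bp. The third, of 4230 bp at chr3:58324511-58328740, covered the terminal exon and the 3′ end of Serp1, a protein of the endoplasmic reticulum stress response, with a KI peak of 465 bp.

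Next in B6 came peaks in Fam134a, in Hibch, an enzyme of valine breakdown (3843 bp, a KI peak of 1121 bp within it), and in Mrpl51, a protein of the mitochondrial ribosome. The Mrpl51 peak, chr6:125142502-125146130, ran over the gene's 3′ end and met a KI peak of 316 bp. The others of the 10 widest were in Gtf2f2, Mrto4 (a ribosome assembly factor, with 6 exons under the peak), Sipa1l2 and at Golga2 with Swi5. All 10 overlapped a KI broad region, and 7 of them overlapped a KI refined peak.

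In KI the widest peak, of 4141 bp, covered 8 exons of the neighbouring genes Wdr55 and Dnd1, the latter an RNA-binding protein that germ cells require, and B6 had a peak of 514 bp there. A peak of 3885 bp overlapped Kank3 and, on the other strand, the ribosomal protein gene Rps28, and ran over a gene 3′ end. Others of the 10 widest were in Tnks, Fam33a, Tulp3 (a protein of ciliary trafficking), Rbfox2, Sharpin with Maf1, Stx4a (a syntaxin of membrane fusion) and Ttll11 (a tubulin glutamylase). Each of the 10 lay over a B6 broad region, and 6 of them overlapped a B6 refined peak.

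A few loci were wide in both strains. There were 66 such pairs. Their shared stretch had a median of 1018.5 bp, which was a median of 94.0% of the shorter peak, and 49 of the 66 pairs shared at least 50% of the shorter peak. The midpoint of the B6 member lay in a protein-coding gene in 50 pairs, and 11 B6 members touched no such gene.

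The pair with the largest smaller width lay at Ankrd49, which encodes an ankyrin repeat protein. It measured 2917 bp in B6 (chr9:14582733-14585649) and 3065 bp in KI (chr9:14582889-14585953), and in both strains it ran from the terminal exon past the 3′ end, with the midpoint outside the gene. The sequence at its centre, shown above, is thus downstream of the gene. At Ash2l, which encodes a core subunit of the H3K4 methyltransferase complexes, both strains had a wide peak (2150 and 2191 bp) but the intervals were offset, with 842 bp in common. The B6 member took in 2 exons and the KI member none. Both lay in the same broad region of 3500 bp. The B6 peak stopped at the last base of that region and the KI peak began 1 bp from its start, so these borders fell on the grid of the broad regions.

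At Srsf1, a splicing factor gene, the B6 peak of 1828 bp lay wholly within the KI peak of 2774 bp, and their midpoints were 75 bp apart. The peaks at Slc3a2, the heavy chain of amino acid transporters, only touched the gene's 5′ end and lay over the neighbouring snoRNA host gene Snhg1, at 1939 bp in B6 and 2353 bp in KI. At Maf1, a repressor of RNA polymerase III, B6 had 1729 bp inside the 3358 bp of KI. The remaining pairs of the first 10 were in 1700081L11Rik, 1110001J03Rik (over the 3′ end in both strains), Hjurp, the chaperone of the centromeric histone, Fars2, the mitochondrial phenylalanine tRNA synthetase, and Zfp3. The B6 peak at Fars2, 1934 bp wide, covered an exon of 633 bp, whose edge with the splice donor is in the sequence above. The peaks at Zfp3, 1571 bp in B6 and 1877 bp in KI, lay over its 1720 bp terminal exon.

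**Figure D4:**
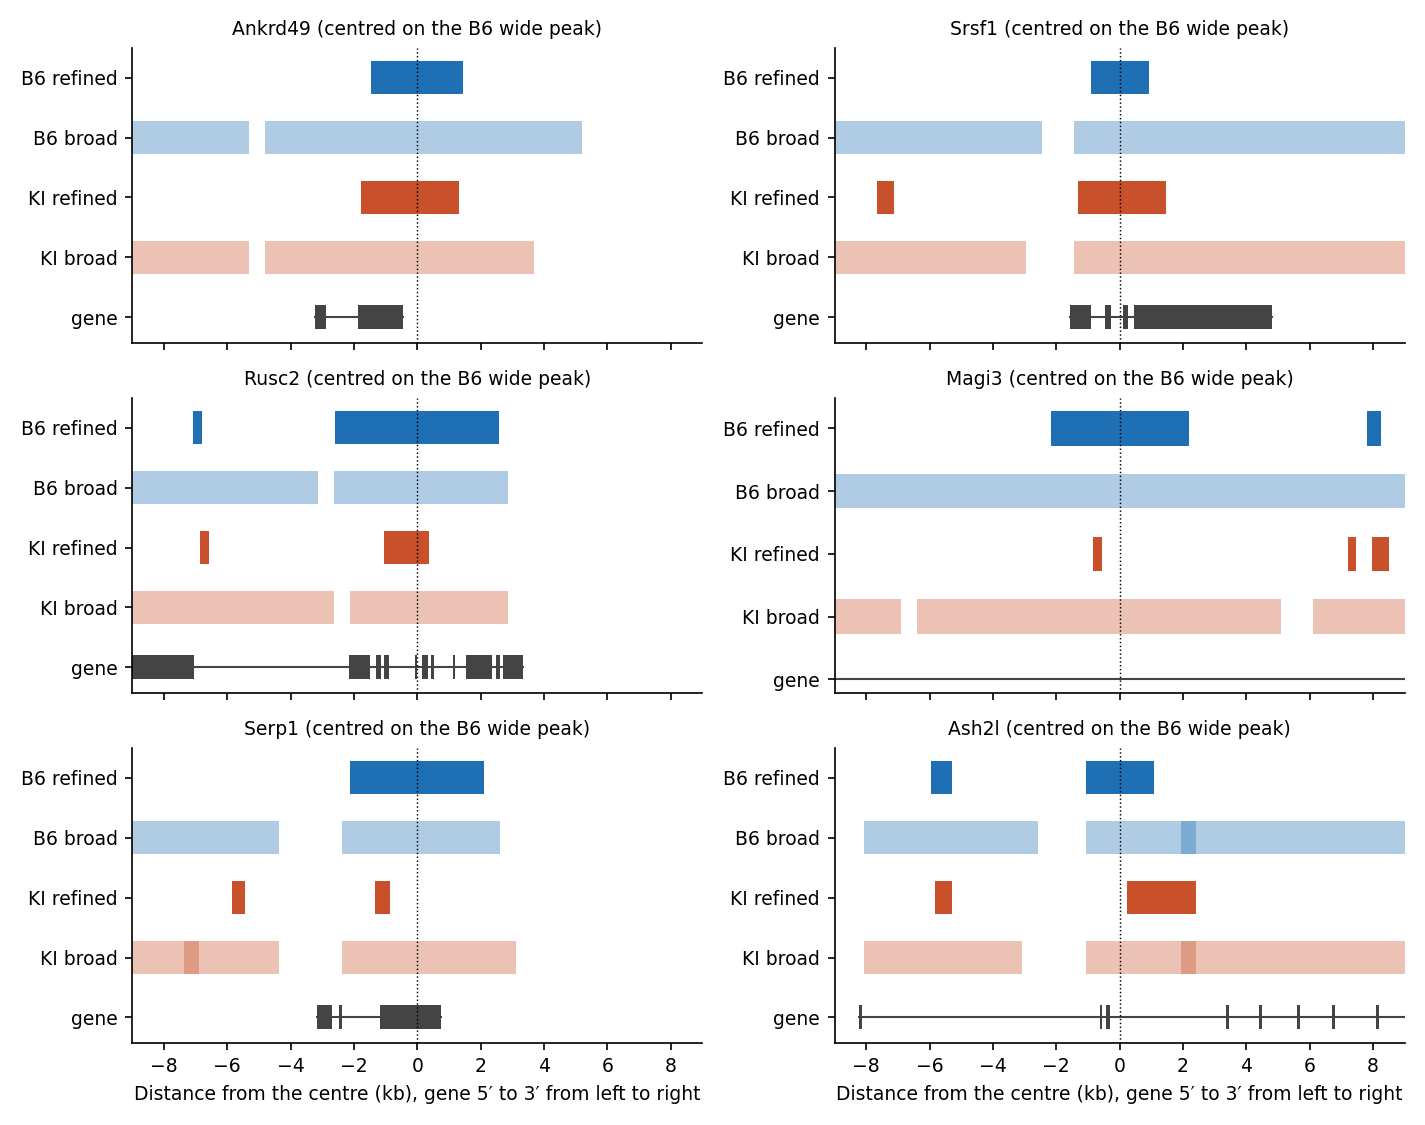
Maps of 6 loci over 9 kb on either side of the centre of a wide peak (x axis, kb, with the gene running 5′ to 3′ from left to right): refined peaks (solid bars) and broad regions (pale bars) of B6 (blue) and KI (orange), and exons of the longest protein-coding transcript (dark boxes). Ankrd49 and Srsf1 have wide peaks at nearly the same place in both strains, at Rusc2, Magi3 and Serp1 KI has a narrower peak inside the wide B6 one, and at Ash2l the wide peaks are offset.

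Over genes, 1481 of 21418 autosomal protein-coding genes (6.91%) were overlapped by a wide B6 peak and 1699 (7.93%) by a wide KI peak. The 440 genes with one in both strains were 29.7% of the B6 genes and 25.9% of the KI genes. Genes with a wide peak were long, with a median of 77.2 kb in B6 and 80.9 kb in KI, against 15.5 kb for all and 30.5 kb and 30.6 kb for genes with any refined peak. A gene with more refined peaks has more occasions to hold a wide one. Counted per peak in exactly 1 gene, the median gene length was 109.9 kb for wide against 117.5 kb for shorter B6 peaks. In KI it was 114.0 kb against 112.9 kb. Most had a single wide peak (1243 in B6, 1391 in KI), and 63 and 92 had 3 or more.

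The genes with the most wide peaks were all long ones. Gm20388, whose annotated span of 4435 kb on chromosome 8 contains other genes, had 10 in B6 and 9 in KI. It held 177 and 218 refined peaks. Msi2, an RNA-binding translational regulator, had 7 in B6 and 1 in KI, out of 74 and 65 refined peaks. Stk39, a kinase gene, had 6 and 1, Camk1d, a calcium-dependent kinase gene, 6 and 4, and 4930534B04Rik 5 and 0. Their refined peaks numbered 46 and 42, 41 and 35, and 53 and 59. Exoc4, a subunit of the exocyst, had 10 wide peaks in KI and 2 in B6, out of 132 and 69 refined peaks. Fgfr2, a growth factor receptor gene annotated here over 3009 kb, had 9 in KI and 2 in B6, Auts2 7 and 3, and Rsrc1 7 and 5. Their refined peaks, KI first, numbered 138 and 113, 216 and 130, and 65 and 49. These genes were ranked by number and not by share. Of all autosomal refined peaks, 4.36% were wide in B6 and 4.47% in KI.

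Wide peaks were found in a few genes of meiosis and of the H3K36 machinery. The counts below stand against the 6.91% of all genes in B6 and 7.93% in KI, or 13.1% and 14.4% of the genes with any refined peak. Among 14 genes of the chromosome axis and synaptonemal complex, 2 held one in B6 and 0 in KI: Syce1 (1695 bp) and Syce3 (1423 bp), both of the central element. Among 19 genes of meiotic breaks and strand exchange, 2 did so in each strain. In B6 they were Psmc3ip and Mnd1, which encode the HOP2 and MND1 partners in strand exchange. The Psmc3ip peak, chr11:100953511-100956500, was 2990 bp wide and covered most of the gene, including part of its terminal exon, while KI had a 225 bp refined peak there, and the Mnd1 peak (1066 bp) was intronic. In KI they were Mei4 (1146 bp) and Mei1 (1137 bp), both needed for meiotic breaks, and both intronic.

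Of 13 piRNA pathway genes, 2 held a wide peak in each strain (10 in B6 and 11 in KI held any refined peak), Piwil1 (1017 bp) and Asz1 (1328 bp) in B6 and Tdrd7 (1312 bp) and Piwil4 (1265 bp) in KI. Of 13 genes for H3K36 methyltransferases and demethylases, 0 held one in B6 and 2 in KI, Smyd2 (1326 bp) and Kdm4c (1275 bp). Of 13 H3K36me3 reader genes there was 1 in each strain, Zmynd11 (1158 bp) in B6 and Brd1 (1041 bp) in KI. Of 21 transcription elongation genes, 0 held one in B6 and 2 in KI, Cdc73 (1050 bp, over its terminal exon) and Ctr9 (1887 bp), which encode subunits of the PAF1 complex.

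Of 14 genes of spermatogonia and meiotic entry, 2 held wide peaks in B6 and 0 in KI. Kit, the receptor of differentiating spermatogonia, had 2 intronic ones (1196 and 1464 bp), and Zbtb16, a transcription factor of undifferentiated spermatogonia, had 1 (1035 bp). None of these 3 peaks, in 2 genes, met a KI region, as was so for 33.8% of all wide B6 peaks inside genes. Every wide peak named in the other lists lay over a region of the other strain. Of the 14 Sertoli, Leydig and interstitial markers, 6 held a refined peak in B6 and 4 in KI, and 0 a wide one in either strain.

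Cytosolic ribosomal protein genes had a large share of wide peaks among the refined peaks that touched them. In B6 they had 12 wide peaks among 69 (17.4%) against 4.36% of all autosomal refined peaks, and in KI 8 among 72 (11.1%) against 4.47%. A wide peak meets a short gene more easily than a narrow one, and these genes are short (median 2.01 kb). Counting only peaks with the midpoint in the gene, it was 8 of 55 (14.5%, 7.56% to 26.2%) in B6, above the share over all refined peaks, and 6 of 60 in KI (interval 4.66% to 20.1%), where the lower bound was close to the share over all refined peaks. The genes also have near-identical processed copies elsewhere in the genome, and only reads of unique position were kept. Zfp genes had 31 among 729 (4.25%) in B6 and 34 among 864 (3.94%) in KI, collagen genes 6 among 142 and 9 among 131, and olfactory receptor genes, also short, 1 among 9 and 1 among 13. The 40 Hox genes had no refined peak in either list.

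The base composition at the centre of wide peaks was close to that of other refined peaks. In the central 400 bp the median GC content was 42.8% (quartiles 38.2% and 47.0%) in B6 and 42.8% (38.8% and 47.2%) in KI, against 42.2% and 43.2% for peaks under 1000 bp. In windows 2 kb away on either side it was 43.8% and 43.5%. The median ratio of observed to expected CpG was 0.172 in B6 and 0.164 in KI, against 0.181 and 0.174 at 2 kb.

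Short sequence words were then compared between strains, a count added after the data had been seen. The 10-mers, both strands together, were ranked by how much more often they occurred in the central 400 bp of B6 peaks than of KI peaks, and the reverse. Only refined peaks under 1000 bp without any region in the other strain, on odd-numbered autosomes, were used, 11495 in B6 and 10962 in KI, and the first 20 words per strain were kept. No wide peak entered this choice. The B6 words were cagtagcttc, cagatgctac, agaagctact, gatgctacta, ggtgctgcca, gctactacca, aaggtgctgc, gtgctgccac, gcagatacta, atgctgctgc, ggtggcagca, ctaatatgaa, agtagcacca, ataatgacac, atgctactac, aggtgctgcc, gaagctacta, agctactacc, gatgatacta and ggtagtagca. The KI words were gaatgtgacc, ggtatgctaa, ggaatgtgac, gcctaaaggc, gggaatgtga, gctaatcata, aatgtgacct, ctgggcctaa, gactcaatgc, cacattccca, ctaacaatag, atgattagca, ctaatcataa, atgctaatca, aaaggtcaca, gattagcata, taaaggccta, actcaatgct, aggtatgcta and cctttaggcc. Many overlap one another within a list and are parts of longer shared stretches.

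The KI words marked the wide KI peaks that had no B6 region. A KI word was found in the central 400 bp of 50 of 1214 such peaks (4.12%, 3.14% to 5.39%), in 9 of 996 wide B6 peaks without a KI region (0.904%, 0.476% to 1.71%), in 1.19% of windows 2 kb from those KI peaks, and in 23 of the 1833 wide KI peaks that met a B6 region (1.25%, 0.838% to 1.88%). In peaks under 1000 bp on the even-numbered autosomes, which were not used in the choice, the KI words stood in 4.77% (4.36% to 5.21%) of KI and 1.57% of B6 peaks, so wide and shorter KI peaks without a B6 region had overlapping intervals.

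The B6 words did not separate the wide peaks to the same degree. They were found in 21 of 996 wide B6 peaks without a KI region (2.11%, 1.38% to 3.20%), in 15 of 1214 such KI peaks (1.24%, 0.750% to 2.029%) and in 1.41% (0.974% to 2.02%) of windows 2 kb from the B6 peaks, with intervals that overlapped. On the even-numbered autosomes 4.43% (4.06% to 4.83%) of shorter B6 peaks held a B6 word, above the interval of the wide ones, and 1.24% of shorter KI peaks did so.

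When the whole peak was searched instead of its centre, 78 of the 996 wide B6 peaks (7.83%, 6.32% to 9.67%) and 47 of the 1214 wide KI peaks (3.87%, 2.92% to 5.11%) held a B6 word. A KI word was in 134 of the 1214 KI peaks (11.04%, 9.40% to 12.9%) and 34 of the 996 B6 peaks (3.41%, 2.45% to 4.73%), with the word closest to the midpoint at a median distance of 278 bp in KI. Most wide peaks without a region in the other strain thus held none of the listed words, and a match of 10 letters is a description of the sequence and no evidence of binding.

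**Figure D5:**
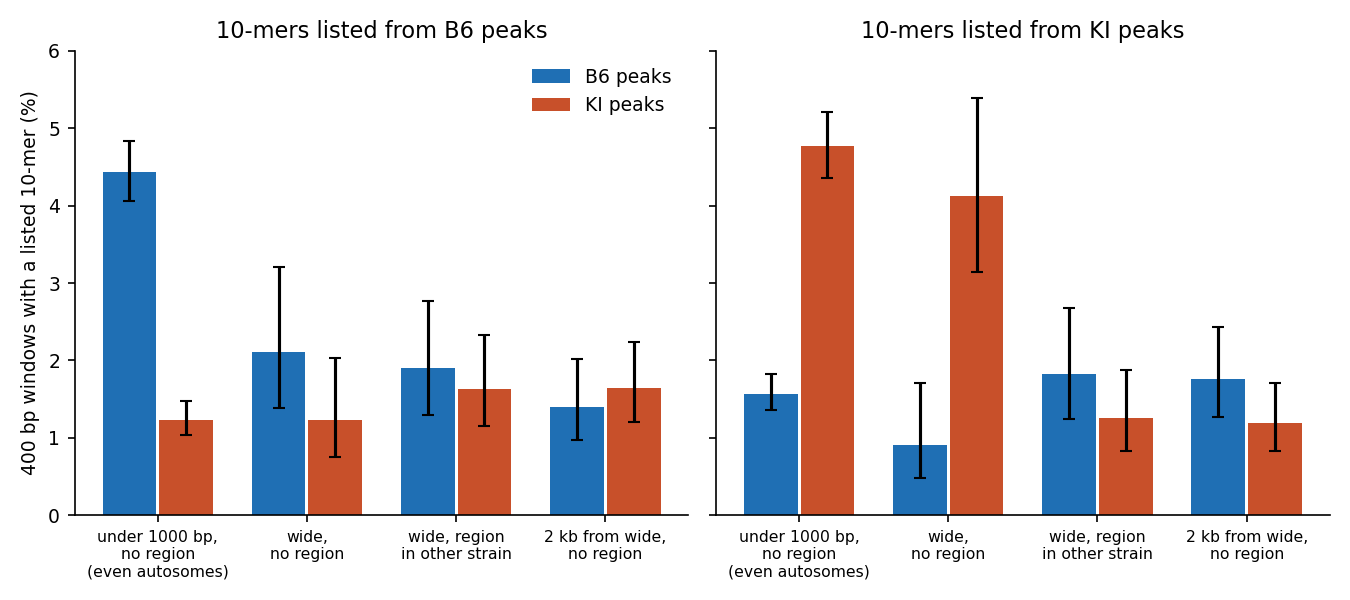
Share of 400 bp windows with at least 1 of 20 listed 10-mers (y axis, percent, Wilson 95% intervals) for the words listed from B6 (left) and from KI (right), in B6 (blue) and KI (orange) peaks: peaks under 1000 bp without a region in the other strain on even-numbered autosomes, wide peaks without and with such a region, and windows 2 kb from the wide peaks without one. KI words stand in 4.12% of wide KI and 0.904% of wide B6 peaks without a region in the other strain, while the B6 words give 2.11% in B6 and 1.24% in KI with overlapping intervals.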

How the data were processed

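Per the labels and the study's methods, the authors trimmed the reads, aligned those of unique position to mm9 with BWA 1.2.3 (the version in the submitters' processing notes), pooled both ChIP replicates per strain and ran the peak caller ZINBA with the input as control (window 1000 bp, offset 500 bp). The deposited lists hold other values than counts: start and end positions of broad regions and refined peaks, with no heights or scores, so that the depth of any 1 peak cannot be given and is unknown. Each refined peak lay within the broad region of the same row. Coordinates were taken as 1-based and inclusive.

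Refined peaks on the 19 autosomes with end - start + 1 of at least 1000 bp were compared with those under 1000 bp. Overlap meant at least 1 bp, and midpoints were used beside it. Genes and exons were those of GENCODE vM1 on NCBIM37 (mm9), and the representative transcript was the longest protein-coding one. Shares have Wilson 95% intervals. With 1 list per strain no test between strains was made. Sequence was read from NCBIM37. The members and gene lists were chosen with earlier results of these data known. Named were the 10 widest peaks per strain, the 10 pairs wide in both strains with the largest smaller width, the 5 genes with the most wide peaks per strain, 2 peaks on each side of the limit per strain and genes of the named lists that held a wide peak, of which 1 peak is not reported here.

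The alternatives were minimum widths of 800 and 1500 bp, all chromosomes, merging within 250 bp, other overlap rules and other gene definitions. Python 3.11.15, pandas 2.3.3 and pysam 0.24.0 were used. The overlap, position and 10-mer code was tested on simulated data. The study's gene expression and H3K4me3 data were not used here.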

Additional observations from a re-analysis of the deposited data

Results flagged for a closer look

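Wide refined peaks were also found on the sex chromosomes, which the rule leaves out and the comparisons above do not use. On the X chromosome 142 of 4140 B6 refined peaks (3.43%, 2.92% to 4.03%) and 166 of 4382 KI refined peaks (3.79%, 3.26% to 4.395%) were 1000 bp or wider, below the autosomal shares of 4.36% and 4.47%. On the Y chromosome 4 of 121 KI peaks (3.31%, 1.29% to 8.19%) and 2 of 126 B6 peaks were that wide. They were picked out because they are a signal in data outside the main comparison.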

How the results depend on the processing

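Of 65 values under other settings, 25 stayed within the interval of the reported value (counts within 1.5 times), and 40 moved. Of 50 differences between wide and shorter peaks, 6 changed direction. By midpoint, overlap with a refined peak of the other strain was 9.72% against 10.3% in B6 and 7.48% against 8.18% in KI, and exon overlap in KI 7.61% against 7.84%. The share in a KI broad region, lower for wide B6 peaks as reported, was higher at 1500 bp (63.7% against 54.7%), by any overlap (57.9% against 56.6%) and inside genes (61.6% against 60.7%). With a minimum width of 800 bp there were 4242 wide peaks in B6 and 5579 in KI, with 1500 bp 678 and 777, and 157 and 10 B6 peaks overlapped a wide KI peak. The share overlapping a refined peak of the other strain in B6 was 28.5% at 800 bp, 41.6% at 1500 bp, 26.7% with 50% of the shorter peak and 35.3% inside genes. In KI it was 29.0% at 1500 bp, and 18.7% and 27.8% under the last 2 settings. The share with the midpoint in a broad region of the other strain in KI was 60.1% at 800 bp, 60.2% by any overlap and 73.9% inside genes. Overlap with a protein-coding gene in B6 became 76.3% at 1500 bp, 76.7% with genes of any type and 71.6% by midpoint, and in KI 66.7% at 1500 bp and 70.9% with genes of any type. Exon overlap in B6 became 24.9% at 800 bp, 40.3% at 1500 bp and 9.34% by midpoint, and in KI 28.7% at 1500 bp. The terminal exon was overlapped by 11.1% of wide B6 and 9.80% of wide KI peaks in genes. In B6 this became 9.21% at 800 bp, 18.8% at 1500 bp, 14.2% with any transcript and 5.77% by midpoint, the last added after seeing the data. In KI it became 16.0% at 1500 bp, 11.6% and 5.07%. The median broad region at 1500 bp was 4250 bp in B6 and 3500 bp in KI. The cause of these changes was not tested, apart from the rise of overlaps with width.

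The comparison rests on 1 pooled list per strain, without heights, and depth limits which peaks were called. No paired analysis was possible because the replicates were merged. The repeat-masked share of the windows was not computed, since the genome used here carries no repeat marks. The 2000 bp class, the split by length of the broad region the 10-mers and the midpoint count in gene lists were chosen after seeing the data.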
